A study of Brachypodium distachyon with 6 samples.

Results

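The 9 *BdSLP1-like* genes of the wild grass *Brachypodium distachyon*, *BdSLP1-like1* to *BdSLP1-like9*, are the homologs of the sorghum silica cell gene *SbSILIPLANT1* (*SbSLP1*). They were taken by name from the gene table of the study, which pairs each of them with a Bd21-3 gene ID, and all 9 IDs were found among the 36647 genes of the deposited bulk RNA sequencing table. All 9 had enough counts to be tested.

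The bulk RNA of leaf developmental zones, the basal part of young leaves in which cells still divide and differentiate, came from 3 wk old wild-type Bd21-3 plants grown on soil. There were 3 libraries labelled protoplasted, each from 10 zones whose cell walls had been digested with Macerozyme R10 and Cellulase Onozuka RS, and 3 libraries labelled non-protoplasted, each from 5 zones. The titles, the library names and the column names of the deposited table give these groups, and the study's methods use them in the same sense, whereas in all 6 samples the treatment entry contradicts them and gives the opposite group, so each direction below rests on the titles and names and would turn round if the treatment entry were right. The libraries held 17482438 to 24621927 counts on genes. Bulk RNA also cannot tell fewer cells of a type from less RNA per cell.

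Silica cells are short epidermal cells above the leaf veins of grasses that fill with solid silica as they mature. In sorghum, SLP1 is a secreted protein that silica cells export towards the wall and that precipitates silica. Prickle hair cells, another silica-bearing cell type of the grass epidermis, are short pointed outgrowths. What each member does in *B. distachyon* is not known here beyond its homology, and the study used *BdSLP1-like3* to mark silica cells and mature hair cells and *BdSLP1-like5* to mark hair cells.

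As a family, the *BdSLP1-like* genes were a larger part of the RNA in the libraries labelled protoplasted. TPM is the count divided by gene length and scaled to the same sum in each library, so that levels of different genes can be compared. The summed TPM of the 9 genes was 4647, 3551 and 3200 in the libraries labelled protoplasted, against 887, 675 and 691 in the libraries labelled non-protoplasted. The groups did not overlap, with 3799 ± 755 and 751 ± 118 TPM (SD, n = 3 each), a ratio of the means of 5.06. With counts per kilobase scaled by edgeR's TMM library factors in place of TPM, that ratio was 4.1. Of all counts on genes, the family took 0.152% to 0.209% in the libraries labelled protoplasted and 0.0289% to 0.0391% in those labelled non-protoplasted. No p was computed for this sum, because the genes were chosen as a set.

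In edgeR's quasi-likelihood test with Benjamini-Hochberg adjustment over all genes tested, 9 of 9 members passed an adjusted p of 0.05, all of them higher in the libraries labelled protoplasted. Of the 23677 genes tested, 77% passed, 38.7% as higher and 38.3% as lower. The median log2 fold change of the members was 2.72, against 0.04 over all genes tested, a median that mixes both directions. A log2 fold change above 3, the limit that the study used, was found for 4 members, *BdSLP1-like1*, *BdSLP1-like6*, *BdSLP1-like7* and *BdSLP1-like9*, and for 5.09% of all genes tested together with an adjusted p under 0.05. In TPM, every library labelled protoplasted exceeded every library labelled non-protoplasted for 9 of 9 members, which held for 47.7% of the tested genes, while 33.4% did not overlap in the other direction (81.1% in either). The direction is therefore common in these data, and the size of the difference varied among the members. The log2 fold change was higher than that of 84.1% of the genes tested for *BdSLP1-like4*, the lowest member. For *BdSLP1-like3* it was higher than that of 88.3%, and for *BdSLP1-like1*, the highest member, than that of 99.8%.

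**Figure D1:**
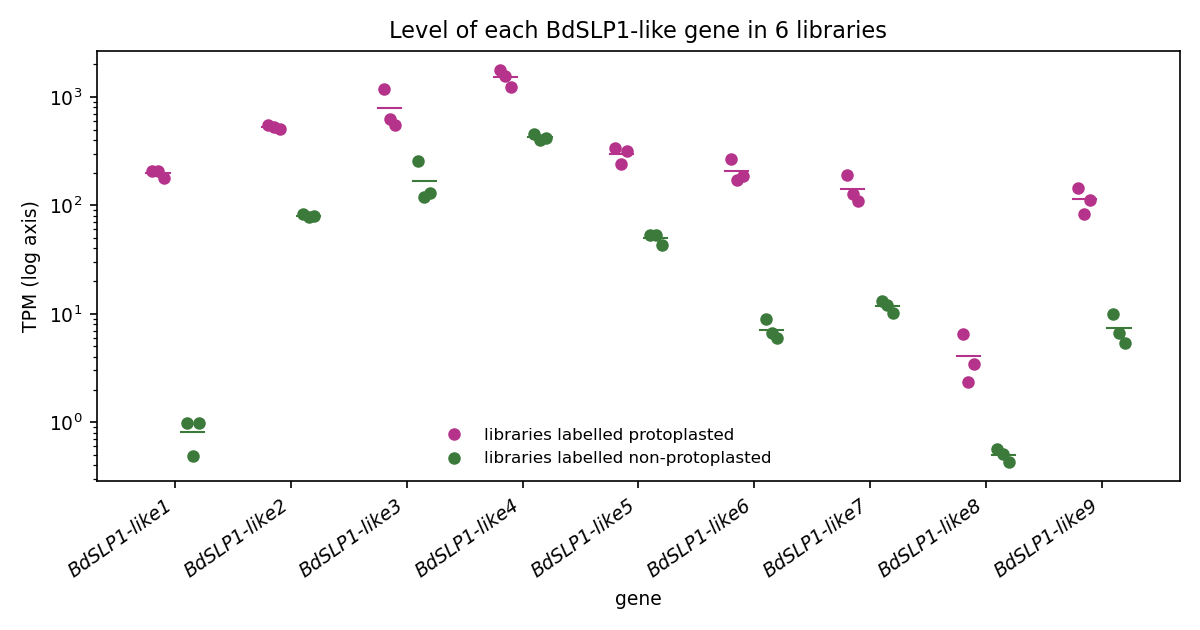
TPM on a log axis for each *BdSLP1-like* gene. Points are single libraries, 3 labelled protoplasted (left of each pair) and 3 labelled non-protoplasted, and the short lines are group means. The gap between the groups is widest for *BdSLP1-like1* (means of 199 and 0.819 TPM) and narrowest for *BdSLP1-like4* (1519 and 425 TPM).

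The 3 members with the highest levels had log2 fold changes of at most 2.44. *BdSLP1-like4* (BdiBd21-3.5G0061500), the only member on chromosome 5, had 1761, 1564 and 1232 TPM in the libraries labelled protoplasted and 459, 400 and 415 TPM in those labelled non-protoplasted. It was the most abundant member in every library and had the smallest log2 fold change of the family, 1.54 (SE 0.16, edgeR adjusted p = 1.91e-05). Ranked by TPM among the 36632 genes with a length, it stood at places 45 to 101 in the libraries labelled protoplasted and at places 347 to 407 in those labelled non-protoplasted. *BdSLP1-like3* (BdiBd21-3.3G0292700) was the study's marker of silica cells and mature hair cells. It had 1178, 624 and 554 TPM in the libraries labelled protoplasted and 258, 119 and 130 TPM in those labelled non-protoplasted. Replicate 1 was the highest library in either group, and the ratio of the highest to the lowest library was 2.12 among the libraries labelled protoplasted and 2.18 among those labelled non-protoplasted. The log2 fold change was 1.89 (SE 0.37, edgeR adjusted p = 0.0011), and the lowest library labelled protoplasted was still 2.15 times the highest one labelled non-protoplasted. *BdSLP1-like2* (BdiBd21-3.3G0292000) had 551, 531 and 507 TPM in the libraries labelled protoplasted and 83.3, 77.7 and 79.2 TPM in those labelled non-protoplasted. It was the steadiest member, with a coefficient of variation of 4.19% in the libraries labelled protoplasted and 3.62% in those labelled non-protoplasted, and its log2 fold change was 2.44 (SE 0.12, edgeR adjusted p = 1.16e-07).

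*BdSLP1-like1* (BdiBd21-3.3G0292100) stood apart from its ID neighbour *BdSLP1-like2*. It had 209, 207 and 180 TPM in the libraries labelled protoplasted and 0.981, 0.485 and 0.989 TPM in those labelled non-protoplasted, so that the ratio of the means was 243. By rank it was among the 865 genes with the highest TPM in each library labelled protoplasted and at place 21391 or lower in each library labelled non-protoplasted. The levels in the libraries labelled non-protoplasted rest on 9, 6 and 12 counts, with exact 95% Poisson intervals of 4.12 to 17.1, 2.20 to 13.1 and 6.20 to 21.0 counts that cover counting error only. Its log2 fold change of 7.65 (SE 0.22, edgeR adjusted p = 6.59e-09) was higher than that of 99.8% of the genes tested.

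The adjacent IDs on chromosome 1, *BdSLP1-like6* and *BdSLP1-like5*, differed from each other by more than their spread. *BdSLP1-like5* (BdiBd21-3.1G0921800), the hair cell marker, had 340, 241 and 314 TPM in the libraries labelled protoplasted and 53.1, 53.1 and 43.3 TPM in those labelled non-protoplasted. *BdSLP1-like6* (BdiBd21-3.1G0921700) had 265, 171 and 187 TPM in the libraries labelled protoplasted, overlapping with its neighbour, but only 8.89, 6.59 and 5.98 TPM in those labelled non-protoplasted. The log2 fold changes were 2.29 for *BdSLP1-like5* (SE 0.16, edgeR adjusted p = 1.27e-06) and 4.57 for *BdSLP1-like6* (SE 0.23, edgeR adjusted p = 1.14e-07). The TPM of *BdSLP1-like5* was 1.28, 1.41 and 1.68 times that of *BdSLP1-like6* in the libraries labelled protoplasted and 5.98, 8.05 and 7.24 times in those labelled non-protoplasted.

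The remaining members were less abundant than *BdSLP1-like5* in every library. *BdSLP1-like7* (BdiBd21-3.3G0291900), the first ID of the run on chromosome 3, had 191, 127 and 110 TPM in the libraries labelled protoplasted and 13, 12.1 and 10.2 TPM in those labelled non-protoplasted. *BdSLP1-like9* (BdiBd21-3.1G0855400) lies on chromosome 1 with no other member at an adjacent ID. It had 145, 83.4 and 112 TPM in the libraries labelled protoplasted and 9.99, 6.69 and 5.35 TPM in those labelled non-protoplasted. Both genes were higher in every library labelled protoplasted, with log2 fold changes of 3.30 for *BdSLP1-like7* (SE 0.21, edgeR adjusted p = 6.77e-07) and 3.66 for *BdSLP1-like9* (SE 0.28, edgeR adjusted p = 1.79e-06). *BdSLP1-like8* (BdiBd21-3.3G0292200) was near the limit of detection, with counts of 76, 31 and 44 in the libraries labelled protoplasted, against 5, 6 and 5 in those labelled non-protoplasted. These counts correspond to 6.54, 2.33 and 3.45 TPM and to 0.570, 0.507 and 0.431 TPM. The exact 95% Poisson intervals nearest to each other were 21.1 to 44.0 counts in the lowest library labelled protoplasted and 2.20 to 13.1 counts in the highest one labelled non-protoplasted. The log2 fold change of *BdSLP1-like8* was 2.72 (SE 0.46, edgeR adjusted p = 0.000469), the largest standard error of the family.

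The order of the levels was fixed at the top and open further down. In both groups *BdSLP1-like4* was followed by *BdSLP1-like3*, *BdSLP1-like2* and *BdSLP1-like5*, and the ranges of these neighbours in the order did not overlap within a group. In the libraries labelled protoplasted, *BdSLP1-like6*, *BdSLP1-like1*, *BdSLP1-like7* and *BdSLP1-like9* came next, but from *BdSLP1-like5* down to *BdSLP1-like9* each range overlapped with that of the next gene. *BdSLP1-like8* closed the order and was clear of *BdSLP1-like9*. In the libraries labelled non-protoplasted the sequence after *BdSLP1-like5* was *BdSLP1-like7*, *BdSLP1-like9*, *BdSLP1-like6*, *BdSLP1-like1* and *BdSLP1-like8*. There the ranges of *BdSLP1-like9* and *BdSLP1-like6* overlapped, as did those of *BdSLP1-like1* and *BdSLP1-like8*, and the other neighbours in the order did not.

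The make-up of the family was compared between the groups as well, and no member's share passed 0.05 in a test. The share of each member in the summed TPM of its library does not depend on how libraries are scaled to each other. *BdSLP1-like4* held 37.9%, 44.0% and 38.5% in the libraries labelled protoplasted and 51.8%, 59.2% and 60.1% in those labelled non-protoplasted. Its share was lower in every library labelled protoplasted although its level was higher there. *BdSLP1-like1* held 5.31% ± 0.707 in the libraries labelled protoplasted and 0.109% ± 0.0357 in those labelled non-protoplasted (SD, n = 3 each). *BdSLP1-like6* held 5.46% ± 0.553 in the libraries labelled protoplasted and 0.948% ± 0.0721 in those labelled non-protoplasted (SD, n = 3 each). *BdSLP1-like2*, *BdSLP1-like7* and *BdSLP1-like9* also had a larger share in every library labelled protoplasted, with 14.2% ± 2.09, 3.70% ± 0.353 and 2.98% ± 0.579 there and 10.8% ± 1.21, 1.58% ± 0.190 and 0.963% ± 0.177 in the libraries labelled non-protoplasted (SD, n = 3 each). The shares of the other members overlapped between the groups. They were 20.1% ± 4.56 for *BdSLP1-like3*, 7.98% ± 1.62 for *BdSLP1-like5* and 0.105% ± 0.0376 for *BdSLP1-like8* in the libraries labelled protoplasted, and 21.8% ± 6.32, 6.71% ± 1.01 and 0.0673% ± 0.00687 for these genes in those labelled non-protoplasted (SD, n = 3 each). An exact two-sided permutation test of 3 libraries against 3 cannot go below p = 0.1, which the members whose shares did not overlap reached (0.15 after adjustment over the 9 members), so that no share passed 0.05. Relative levels that do not overlap are common in these data, as 77.5% of 22375 ratios of adjacent tested IDs did not overlap between the groups.

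**Figure D2:**
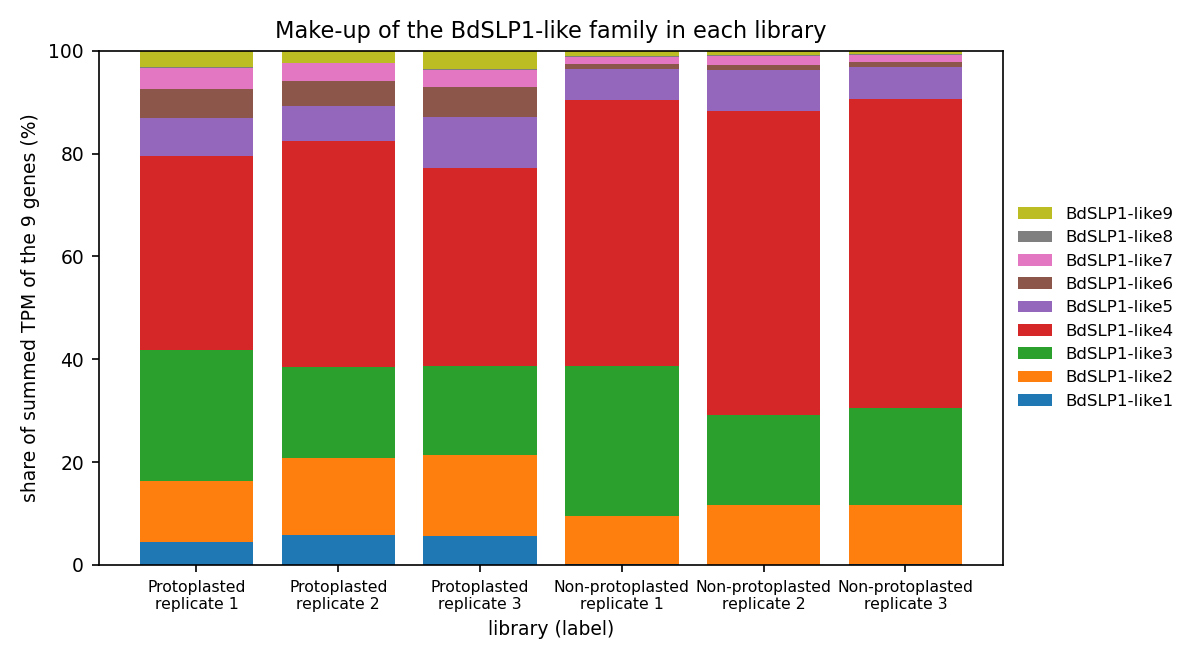
Share of each *BdSLP1-like* gene in the summed TPM of the 9 genes, in percent, with 1 bar per library and the libraries labelled protoplasted on the left. *BdSLP1-like4* takes 37.9% to 44.0% of the bars on the left and 51.8% to 60.1% of those on the right, where *BdSLP1-like1* is too small to be seen.

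Grouped by place, the 5 members on chromosome 3 together held 46.0%, 42.0% and 42.3% of the summed TPM in the libraries labelled protoplasted and 40.1%, 31.0% and 32.0% in those labelled non-protoplasted. The adjacent IDs on chromosome 1 held 13%, 11.6% and 15.7% in the libraries labelled protoplasted and 6.99%, 8.84% and 7.13% in those labelled non-protoplasted. Grouped as the study discussed them, *BdSLP1-like1* to *BdSLP1-like4*, which it placed with silica cells and mature hair cells, held 79.8% ± 2.55 in the libraries labelled protoplasted and 89.7% ± 1.25 in those labelled non-protoplasted (SD, n = 3 each). *BdSLP1-like5*, *BdSLP1-like6*, *BdSLP1-like7* and *BdSLP1-like9*, which it placed with hair cells, held 20.1% ± 2.53 in the libraries labelled protoplasted and 10.2% ± 1.24 in those labelled non-protoplasted (SD, n = 3 each). *BdSLP1-like8* was in neither set. The hair cell set thus took a larger share in each library labelled protoplasted, although the share of *BdSLP1-like5* itself overlapped between the groups. In the other set, *BdSLP1-like1* and *BdSLP1-like2* went the opposite way from their set and *BdSLP1-like3* overlapped. Only *BdSLP1-like4* was lower in every library labelled protoplasted, with a mean difference of -16.9 percentage points. The sets were not tested, and 77.5% of ratios of adjacent tested IDs did not overlap either.

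Ratios between members within a library compare them directly. Of the 36 ratios between members, 28 did not overlap between the groups, close to the 77.5% found for 22375 ratios of adjacent tested IDs across the genome, so this count is near the background. *BdSLP1-like1* stood at 0.380, 0.389 and 0.354 of the TPM of *BdSLP1-like2* in the libraries labelled protoplasted and at 0.0118, 0.00625 and 0.0125 of it in those labelled non-protoplasted. All 8 ratios with *BdSLP1-like1* moved towards *BdSLP1-like1*, by 3.14 (against *BdSLP1-like6*) to 6.17 (against *BdSLP1-like4*) on the log2 scale. The ratio of the markers *BdSLP1-like3* and *BdSLP1-like5* overlapped between the groups. It was 3.46, 2.59 and 1.76 in the libraries labelled protoplasted and 4.86, 2.23 and 3.01 in those labelled non-protoplasted. Each of the 36 ratios was tested by an exact two-sided permutation test, and the smallest p was 0.1, the smallest this design allows.

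The replicates of a group did not spread evenly. The library labelled protoplasted with replicate number 1 had the highest TPM of its group for 9 of 9 members, where it was the highest for 47.7% of the tested genes. The library labelled non-protoplasted with replicate number 1, the smallest of all with 17482438 counts, had the highest TPM of its group for 8 of 9 members, where it was the highest for 23.0% of the tested genes. In CPM, counts scaled by library size with edgeR's TMM factors, these libraries were the highest of their groups for 7 and 9 members, where they were for 40.8% and 37.7% of the tested genes. The excess was largest for *BdSLP1-like3*, with 1.5 times the group mean in the library labelled protoplasted and 1.53 times in the one labelled non-protoplasted, and for *BdSLP1-like8* in the libraries labelled protoplasted, with 1.59 times. *BdSLP1-like2* hardly took part, with 1.04 times the group mean in either group. With both of these libraries left out, an alternative chosen after seeing the data, 9 of 9 members were still higher at an adjusted p under 0.05 from edgeR, with log2 fold changes of 1.55 to 7.79, and *BdSLP1-like3* had 2.01 (adjusted p = 4.69e-07). The median coefficient of variation of the members was 24.1% in the libraries labelled protoplasted and 13.8% in those labelled non-protoplasted, against 16.4% and 12.8% over all genes tested.

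**Figure D3:**
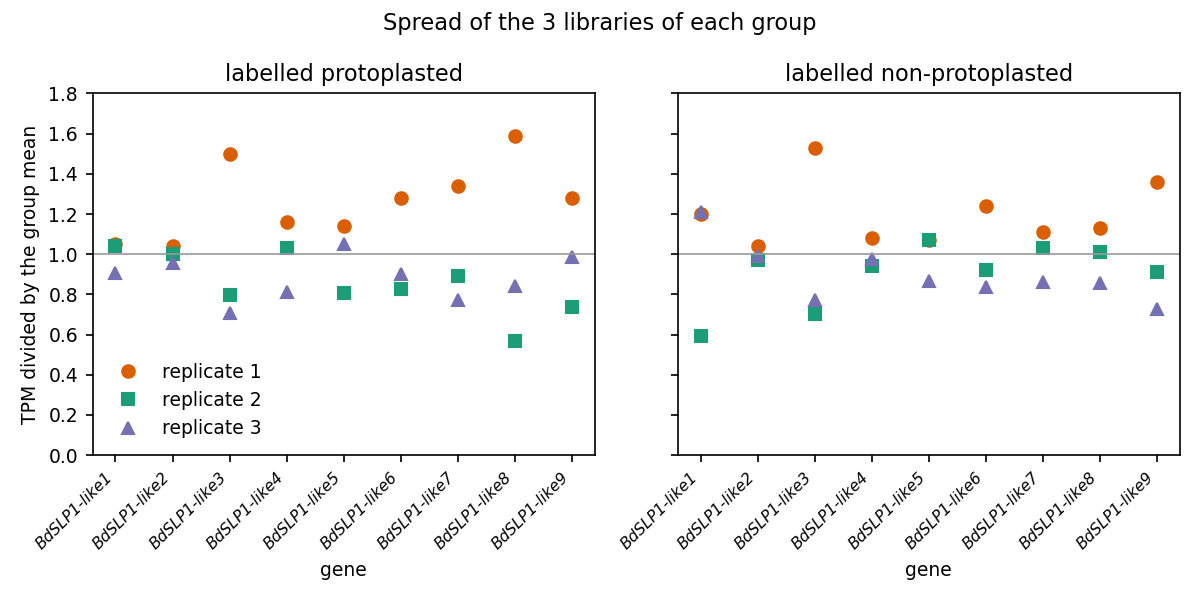
TPM of each library divided by the mean of its group (no unit) for the 9 genes, with the libraries labelled protoplasted on the left. Circles mark replicate 1, which lies at 1.5 and 1.53 times the mean for *BdSLP1-like3* and at 1.04 times for *BdSLP1-like2*.

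The members lie in IDs of 3 chromosomes. On chromosome 3, *BdSLP1-like7*, *BdSLP1-like2*, *BdSLP1-like1* and *BdSLP1-like8* have 4 consecutive IDs, and *BdSLP1-like3* follows after 4 further IDs. On chromosome 1, *BdSLP1-like6* and *BdSLP1-like5* are consecutive. No coordinates were used, so that place here means the order of the IDs. The 10 IDs on either side of each member gave 84 neighbours, of which 57 had enough counts to be tested and 12 had 0 counts in all libraries. Of the tested neighbours, 19 had higher and 29 had lower levels in the libraries labelled protoplasted, with a median log2 fold change of -0.47, against 9 and 0 of the members. Neighbours were thus found on both sides of 0, as were all genes tested, of which 38.7% were higher and 38.3% lower. On chromosome 3, 5 of the 15 tested neighbours were higher and 8 lower, and none of the 24 neighbours exceeded 63.3 TPM in any library. The 3 IDs just before *BdSLP1-like7* and the ID just after *BdSLP1-like3* had 0 counts in all libraries, so that no read was counted on them. The 4 IDs between *BdSLP1-like8* and *BdSLP1-like3* were low, with at most 9.43 TPM, and 3 of them were higher in the libraries labelled protoplasted. Around the pair on chromosome 1, 4 of the 14 tested neighbours were higher and 8 lower. Around *BdSLP1-like9* the numbers were 6 and 8 of 17 tested, and around *BdSLP1-like4* 4 and 5 of 11 tested.

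**Figure D4:**
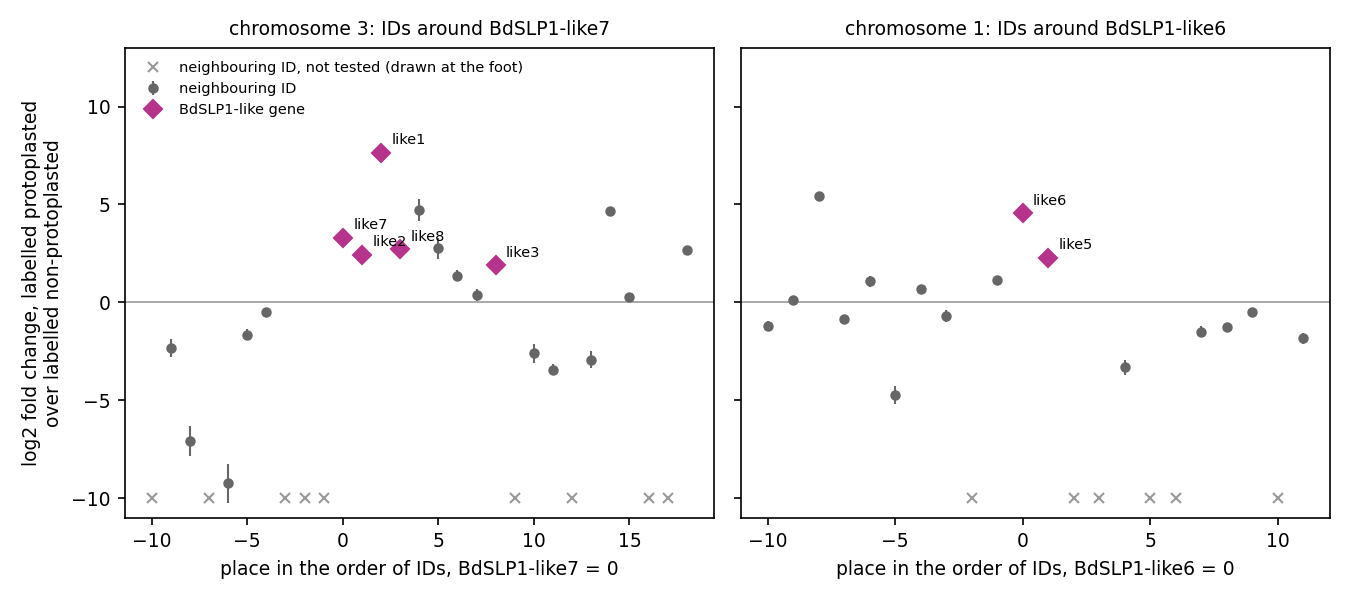
Log2 fold change with its standard error for the IDs around the 5 members on chromosome 3 (left) and the 2 adjacent members on chromosome 1 (right), in the order of the IDs. Diamonds are *BdSLP1-like* genes, which all lie above 0, circles are other tested IDs, which lie on both sides of it, and crosses at the foot mark IDs that were not tested and carry no value. The lowest circle is an ID with 0 counts in the libraries labelled protoplasted, whose fitted value depends on the prior count and is no bound.

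None of the neighbouring IDs is named in the gene table of the study. BdiBd21-3.1G0920900, near the pair on chromosome 1, had the highest log2 fold change among them, with 49.4, 52.4 and 43.0 TPM in the libraries labelled protoplasted and 0.711, 0.753 and 1.23 TPM in those labelled non-protoplasted (log2 fold change 5.45 ± 0.20 SE, edgeR adjusted p = 2.21e-08). BdiBd21-3.1G0921200, also near that pair, was lower in the libraries labelled protoplasted. It had 5.28, 1.43 and 1.16 TPM in the libraries labelled protoplasted and 61.9, 53.1 and 51.3 TPM in those labelled non-protoplasted (log2 fold change -4.73 ± 0.44 SE, edgeR adjusted p = 7.34e-06). BdiBd21-3.3G0291300, near the run on chromosome 3, had 0 counts in each library labelled protoplasted and 82, 44 and 48 counts in those labelled non-protoplasted. How reads shared between similar members were placed in alignment or treated in counting is not given in the sources used here. The values of members with similar sequences may therefore be less certain, and how similar the members are was not examined here.

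Markers of the cell types around the silica cells were read in the same fit. The list of hair cell markers held 4 genes of the study's gene table, *2cRR*, *BdSPL5*, *BdSPL10* and *BdWOX3B*, and not every hair cell marker that the study used. All 4 were higher in the libraries labelled protoplasted, where 38.7% of all genes tested were. Their summed TPM ran from 30.6 to 57.8 in the libraries labelled protoplasted and from 1.31 to 1.91 in those labelled non-protoplasted. *2cRR*, a response regulator, had 13.5, 8.80 and 11.4 TPM in the libraries labelled protoplasted and 1.18, 1.5 and 1.15 TPM in those labelled non-protoplasted (log2 fold change 2.83 ± 0.28 SE, edgeR adjusted p = 1.26e-05). *BdWOX3B*, a homeobox gene of hair cell files, had 14.5, 11.5 and 11.5 TPM in the libraries labelled protoplasted and 0, 0.119 and 0.121 TPM in those labelled non-protoplasted. Of the 4 epidermal layer markers, 2 were higher, 1 was lower and 1 was not called. *BdPDF1*, the most abundant of them, had 447, 291 and 354 TPM in the libraries labelled protoplasted and 25.6, 31.5 and 24.0 TPM in those labelled non-protoplasted (log2 fold change 3.46 ± 0.18 SE, edgeR adjusted p = 1.59e-07). Of the 8 stomatal lineage markers, 7 were higher and 0 lower, and *BdICE1*, a bHLH gene of stomatal files, had 143, 110 and 113 TPM in the libraries labelled protoplasted and 18.2, 24.6 and 20.8 TPM in those labelled non-protoplasted.

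Markers of inner tissues were counted in the same way. *BdLHCA6*, a light-harvesting gene named here after its values were seen and the only mesophyll gene of the lists, had 96.0, 84.5 and 97.5 TPM in the libraries labelled protoplasted and 35.4, 43.6 and 41.0 TPM in those labelled non-protoplasted (log2 fold change 0.93 ± 0.11 SE, edgeR adjusted p = 4.92e-05). *BdSTOMAGEN-1*, which the study also used for the mesophyll and which was added after seeing the data, had 31.2, 61.0 and 42.5 TPM in the libraries labelled protoplasted and 13.6, 10.4 and 9.61 TPM in those labelled non-protoplasted (log2 fold change 1.73 ± 0.27 SE, edgeR adjusted p = 0.000285). Of the 7 vascular markers 6 were tested, and 4 of them were higher, 1 was lower and 1 was not called. Their list summed to 356 to 383 TPM in the libraries labelled protoplasted and to 99.9 to 107 TPM in those labelled non-protoplasted. Among the 5 meristem markers, 2 were tested, of which 1 was higher and 1 was not called. *BdKN1* and *BdKNAT1-like* had 0 counts in all libraries, and the list summed to at most 2.21 TPM. The list did not hold every homolog of a meristem gene in the study's gene table. *BdFEA3*, a homolog of maize *ZmFEA3* outside the list, had 131, 108 and 104 TPM in the libraries labelled protoplasted. In those labelled non-protoplasted it had 23.4, 25.3 and 19.6 TPM. The part of these markers in the difference of the members was not tested.

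Most silica cell lineage markers differed in the opposite direction from the members. The shortened text of the study's marker table gave only a part of the IDs of this cell cluster, and those with an average log2 fold enrichment above 1.5 were listed. The study called these markers in single-cell libraries, which were made from protoplasts. Of these, 114 were tested and 3 were not in the count table. In the libraries labelled protoplasted, 10 were higher and 91 lower, with a median log2 fold change of -4.59 (also -4.59 with the 9 IDs at 0 in all libraries labelled protoplasted set to a floor of 3 counts over the group), where 38.7% of all genes tested were higher and 38.3% lower. Their summed TPM ran from 4152 to 4713 in the libraries labelled protoplasted and from 13649 to 16234 in those labelled non-protoplasted. The ID with the lowest log2 fold change (-15.38) had 0, 0.135 and 0 TPM in the former and 2224, 2111 and 2856 TPM in the latter. The one with the highest (2.41) had 2460, 1764 and 1859 TPM against 306, 283 and 343 TPM. What these values mean for the conflict between titles and treatment entry was not tested. None of the 9 members was among these IDs, which says little of the members because the list is cut short. *BdSLP1-like4* stood in the shortened text below the limit, and the other members did not stand in it under this cluster.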

How the data were processed

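Poly-A RNA of 6 bulk libraries was sequenced. Reads were aligned by the authors to version 1.1 of the Bd21-3 genome, using bowtie2, and the authors deposited raw counts per gene from summarizeOverlaps. Next to these stand deposited signal values, reads per kilobase of gene length, and deposited TPM values, with TPM means per group that were not used. Recomputed values equalled both, and 15 genes had no length. Strand use and counting mode are not given in the sources used here. Of the columns, 0 were left unmapped.

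Counts were analysed with edgeR 4.0.16 in R 4.3.3: filterByExpr at a minimum count of 10, TMM factors (0.84 to 1.15), glmQLFit and glmQLFTest of the group alone, prior count 0.125, Benjamini-Hochberg adjustment over 23677 genes, threshold 0.05. The standard error (SE) was taken as |log2 fold change| / sqrt(F). On simulated counts for 23677 genes edgeR recovered 64.0% of 89 genes changed by a log2 fold of 1 and 100% of 111 changed by 3, and called 8 unchanged genes. The study calls the 3 libraries of a group biological replicates, and the labels do not say how they were separated, so p-values measure the spread between these libraries.

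The alternatives were DESeq2 1.42.0, RLE or library size scaling, filters, limma 3.58.1 (voom, and log2 of TPM with a pseudocount of 1 or 0.1), a prior count of 2, a replicate block and each library left out. Members and lists were chosen with earlier results of these data known. Named genes were the 9 members, up to 4 genes of the hair, epidermal and stomatal lists, the 3 genes of the study's gene table nearest in profile, and at most 2 unnamed IDs per direction, those with the largest fitted log2 fold change among called neighbours with a mean of at least 1 CPM. Of the 9 member IDs and their 9 Bd21 IDs, 0 were found in the RefSeq gene table (assembly Brachypodium_distachyon_v3.0), and no sequence is shown.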

Additional observations from a re-analysis of the deposited data

How the results depend on the processing

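All 9 members were higher in the libraries labelled protoplasted under every alternative that tested them. A minimum of 10 counts in every library removed *BdSLP1-like1* and *BdSLP1-like8* and left 7. *BdSLP1-like3* had log2 fold changes of 1.53 to 2.38 and *BdSLP1-like8* of 1.68 to 3.09 over all alternatives. Of 352 alternative values, 9 moved past the limits used, which are the threshold for tested values, 1.5 times for counts and 1 SD between replicates for values without a call. With 5 IDs on either side, 10 neighbours were higher and 13 lower. At least 10 counts in every library gave 10 genes of the named marker lists higher in place of 19 and 46 silica cell lineage IDs lower in place of 91, as fewer genes were tested. The named lists had 1 gene lower in place of 2 with library size only and with limma on log2(TPM + 0.1) or log2(TPM + 1), and 1 to 3 with a library left out, 1 of them without the library labelled non-protoplasted with number 3. In raw counts, the share of *BdSLP1-like1* differed by 6.15 percentage points in place of 5.21. The share differences of *BdSLP1-like3* and *BdSLP1-like5*, which overlapped between the groups, had no stable size. With a library left out they ran from -4.4 to 1.86 percentage points in place of -1.77 for *BdSLP1-like3*, positive only without the library labelled non-protoplasted with number 1, and from 0.35 to 1.87 in place of 1.27 for *BdSLP1-like5*. Library size only moved the median of all genes to a log2 fold change of 0.42, against 0.04. With the replicate number as a block, 9 members were higher and *BdSLP1-like3* had 1.94 (adjusted p = 7.96e-06 from edgeR). Deviations of same-numbered libraries correlated by 0.121, 0.0379 and 0.0832 across genes, so the numbers were not taken to pair the libraries, and 1 library labelled protoplasted correlated best with another number. *BdSLP1-like1* in the libraries labelled non-protoplasted and *BdSLP1-like8* are limited by depth. The exchange of groups in the labels' treatment entry would reverse every sign.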

Other observations

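The named genes whose profile over the 6 libraries lay nearest to the family were sought among the 60 other tested genes of the gene table of the study. The measure was the Euclidean distance between log2(CPM + 0.5) profiles, each centred on its own mean, and the distances are a description without a test. Over 2 groups of libraries, genes with a similar difference between the groups lie near each other. A small distance therefore does not show that genes are expressed in the same cells. Nearest to the mean profile of the members was *BdPME53-like*, a putative pectin methylesterase gene, at a distance of 0.39, where the median over the 60 genes was 2.49. It had 43.7, 35.9 and 36.3 TPM in the libraries labelled protoplasted and 4.82, 4.19 and 3.76 TPM in those labelled non-protoplasted. *BdWOX3B* (0.51) and *BdPAN2* (0.61) came next. *BdSLP1-like5* was nearest to *2cRR* (0.41), which the study also used for hair cells, and then to *BdFEA3* and *BdSPCH1* (0.44 each). Its nearest member was *BdSLP1-like2* at 0.47, which the study placed with silica cells and mature hair cells. The offset of 0.5 flattens the profiles of genes with few counts, which applies to *BdSPCH1*, *BdWOX3B* and *2cRR*. These had at most 53, 120 and 106 counts in a library, so the small distance of *2cRR* to *BdSLP1-like5* rests partly on that offset. *BdSLP1-like3* had no gene as near, with *BdEPF2-2* at 1.01, *BdFEA3* at 1.05 and *2cRR* at 1.17, and *BdSLP1-like4* was the nearest member at 1.02.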
